A study of Mus musculus with 15 samples.

Results

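The genes of mitosis and chromosome segregation were followed in kidneys of male C57BL/6 mice measured on Illumina MouseWG-6 whole-genome arrays, a bead array on which each probe reports 1 transcript sequence. Members were 48 genes listed by name, and a probe belonged to a member when the annotation paired with the series gave that symbol or an older name of the same gene. A named probe was found for 47 of the 48 genes (none for Ccnb1, cyclin B1), and 27 of them had at least 1 probe that was detected (detection p under 0.05 against the array's negative control beads) on at least 3 of the 15 arrays. These 27 genes, with 40 tested probes of 93 named ones, stand against 10838 genes and 19027 tested probes of 45281 in the whole series.

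All mice were weaned at 3 weeks of age and fed an AIN-93G diet, and the study asked how limited drinking water affects the growing kidney. CON 1W mice (4 arrays) drank freely for 1 week and were 4 weeks old, and CON 4W mice (3 arrays) drank freely for 4 weeks and were 7 weeks old. RES 1W (4 arrays) and RES 4W (4 arrays) mice had the same ages and durations but were given the water bottle for only 15 min a day. The paper states that restricted mice were killed a day after they last had the bottle. Restriction over the weeks and that last day without water therefore cannot be told apart. The groups thus carried no transgene or deletion, and p-values measure only the spread between these samples.

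In mitosis, cyclin-dependent kinase 1 and the Polo and Aurora kinases drive a cell into division, the condensed chromosomes attach to the spindle through their kinetochores, and a checkpoint holds the cell until every chromosome is attached. The anaphase-promoting complex, activated by Cdc20, then releases the sister chromatids, and cytokinesis cuts the cell apart. Most of these transcripts are made only late in the cell cycle, so that in a tissue they mark dividing cells. The kidney of a young mouse still grows after weaning, whereas tubule cells of the adult kidney seldom divide.

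Levels are log2 intensities after background correction, so that a difference of 1 is a doubling, and a level is comparable between arrays for 1 probe but not between probes. The lowest level that counted as detected lay between 4.76 and 4.98 on the 15 arrays and between 4.82 and 4.91 on the CON 4W arrays. Between 15295 and 17433 probes were detected per array. Markers of the tubule segments were detected: the 6 of 6 tested proximal tubule genes averaged 11.09 to 11.34 over all arrays, while none of 4 adrenal cortex genes passed the filter. The library labelled RES 4W replicate 1 stood apart: over all tested probes its nearest array was CON 4W replicate 3 (r = 0.989), and its mean correlation with its own group was 0.978, against 0.989 to 0.992 for the other arrays. The counts that rest on RES 4W, and the values of the genes named for it, are therefore also given without it.

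The tested members were detected most often in the younger control kidneys. Of the 27, each by the probe it was read from, 23 were detected on every CON 1W array, 18 on every RES 1W array, 14 on every CON 4W array and 17 on every RES 4W array. For 7 of them, Cdk1, Foxm1, Cdca5, Kif2c, Kif4, Nusap1 and Top2a, that probe was detected on none of the 3 CON 4W arrays, although a second Foxm1 probe was detected on 2 of the 3. The 20 other members with a named probe did not pass the filter: Aurkb, Bub1, Ccna2, Ccnb2, Cenpe, Cks2, Ect2, Kif20a, Ndc80, Nek2, Racgap1, Smc2, Tpx2 and Ube2c were detected on no array by any probe, and Cenpf, Espl1, Hmmr, Kif11, Melk and Nuf2 on 1 array. Just inside the filter were Ttk (3 arrays) and Top2a (4 arrays, all of them CON 1W), and just outside it was a second probe of Ncapd2 (2 arrays). A gene that passed only through the group where it was high had to differ, so counts over the 27 describe those genes and not the whole set of 48; 14 of them were detected on all 15 arrays and are counted separately.

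The mean level of the 27 genes was 6.36 to 6.62 on the CON 1W arrays, 5.50 to 5.93 on the RES 1W arrays, 5.32 to 5.37 on the CON 4W arrays and 5.47 to 5.57 on the RES 4W arrays. The ranges of CON 1W and of CON 4W did not overlap that of any other group, whereas those of RES 1W and RES 4W did. Over all tested probes the mean was 7.04 to 7.07 on every array. By group means, CON 1W was highest for 23 of the 27 genes, CON 4W was lowest for 22, and RES 1W was in the second place for 20. These orders were not counted over all tested probes, so they only describe the 27 genes. Top2a and Nusap1 needed CON 1W to pass the filter, which favoured the first place of CON 1W for them. The kidney arrays report RNA of a whole organ, so that fewer dividing cells and less of these RNAs per dividing cell cannot be told apart.

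**Figure D1:**
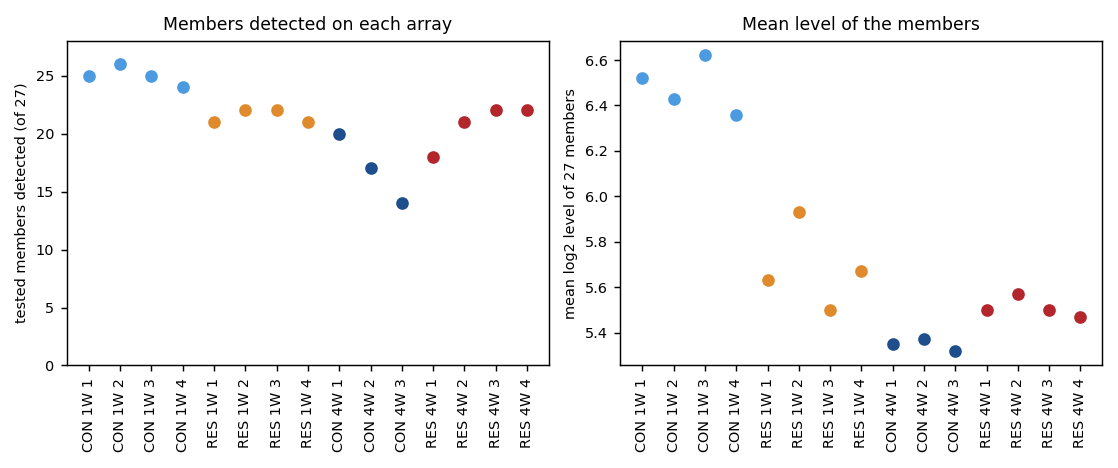
Each point is 1 array, coloured by group; the left panel shows how many of the 27 tested members were detected (detection p under 0.05) and the right panel their mean log2 level. The CON 1W arrays hold 24 to 26 detected members and the CON 4W arrays 14 to 20, and the mean level separates the CON 1W arrays from all others.

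The first comparison, CON 4W against CON 1W, shows how the genes differ between the kidneys of 7-week-old and 4-week-old mice with free access to water. In limma's fit over all tested probes, 21 of the 27 genes were lower at 7 weeks at an adjusted p under 0.05 and 0 were higher, where 1.79% of all tested probes were lower and 1.18% higher. Their median difference was -1.12 on the log2 scale, against 0 for all tested probes. Of the 14 genes detected on all 15 arrays, 12 were lower, with a median of -1.35. Pbk, Prc1, Cdc20 and Birc5 had the largest differences.

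The second comparison, RES 1W against CON 1W, sets 1 week of restricted water against free access at the same age. The paper reports that restricted mice also ate less during the first few days and caught up after the first week. Effects of water and of food intake therefore cannot be told apart here. Lower levels were called for 17 of the 27 genes and higher levels for 0, against 1.38% of all tested probes lower and 1.42% higher, and the median was -0.77. Of the 14 genes detected everywhere, 11 were lower, with a median of -1.05. Both comparisons use the same 4 CON 1W arrays, so a high or low value there enters both, and the values of the members in each are given side by side below. The calls that were lost when 1 array was left out were those of Anln, Cdca5, Foxm1, Kif2c, Kif4 and Nusap1 between the control ages, where 3 to 11 of the 15 omissions ended the call, and Kif2c, Ncaph, Nusap1 and Top2a in RES 1W, where 3 to 12 did.

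Among the kinases that bring a cell into mitosis and their partners, 7 of 13 listed genes were measurable, all 7 were lower in CON 4W and 6 of 7 in RES 1W. Cdkn3, which removes a phosphate from cyclin-dependent kinases, read 7.31, 6.98, 7.44 and 7.04 in CON 1W. Its levels were 5.55, 5.65, 5.22 and 5.48 in RES 1W, 5.39, 5.61 and 5.33 in CON 4W, and 5.47, 5.34, 5.24 and 5.47 in RES 4W. All 4 CON 1W arrays lay above the 11 others, which overlapped one another. The difference was -1.75 ± 0.13 (SE; 3.36-fold lower, adjusted p = 2.9e-06) in CON 4W and -1.72 ± 0.12 (3.29-fold lower, adjusted p = 2.4e-06) in RES 1W.

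Pbk, a mitotic protein kinase, had the largest difference in both comparisons. It read 8.16, 7.87, 8.40 and 8.05 in CON 1W, 5.81, 6.76, 5.51 and 6.29 in RES 1W, 5.15, 5.45 and 5.56 in CON 4W, and 6.16, 6.01, 5.86 and 5.56 in RES 4W. No array of another group reached the CON 1W range, and the RES 1W arrays spread over more than 1 log2 unit. Pbk was 6.65-fold lower in CON 4W (-2.73 ± 0.23, adjusted p = 1.2e-05) and 4.08-fold lower in RES 1W (-2.03 ± 0.22, adjusted p = 1.0e-04).

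Aurka, the Aurora kinase of the spindle poles, read 6.39, 6.35, 6.39 and 5.90 in CON 1W and 5.75, 5.47, 5.25 and 5.30 in RES 1W. In CON 4W it read 5.01, 4.68 and 4.70, with the last 2 arrays not above background, and in RES 4W 5.38, 5.43, 5.04 and 4.98. The lowest CON 1W array was still above every other array, by a small margin over RES 1W. Its differences were -1.46 ± 0.16 (adjusted p = 8.1e-05) in CON 4W and -0.82 ± 0.15 (adjusted p = 0.0063) in RES 1W.

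Cdca3, which takes part in the destruction of the mitotic inhibitor Wee1 in frog egg extracts, read 8.89, 8.65, 9.17 and 8.53 in CON 1W. It read 7.17, 7.74, 6.84 and 7.63 in RES 1W, 6.70, 6.89 and 7.02 in CON 4W, and 7.28, 6.97, 6.73 and 6.76 in RES 4W. CON 1W stood clear of the rest, and the other 3 groups shared the range around 7. Cdca3 was 3.84-fold lower in CON 4W (adjusted p = 5.8e-05) and 2.76-fold lower in RES 1W (adjusted p = 6.4e-04). A dimmer second probe was lower in both as well, but it needed its 4 CON 1W arrays to pass the filter. That favoured lower levels elsewhere, so it adds no weight to these calls.

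The remaining measurable genes of this group were Plk1, the Polo kinase (-1.43, adjusted p = 9.7e-04 in CON 4W; -1.16, adjusted p = 0.0030 in RES 1W), Cdk1 and Foxm1. Cdk1, the kinase at the centre of mitotic entry, averaged 6.08 ± 0.12 (SD, n = 4) in CON 1W and 5.02 ± 0.44 (n = 4) in RES 1W, and was not above background on any CON 4W array. It was lower by at least 2.29-fold in CON 4W (the CON 1W mean against the higher of the lowest detected level and the gene's own reading on each array, averaged, as for all bounds here; adjusted p = 3.5e-04) and 2.08-fold lower in RES 1W (adjusted p = 0.0041). The adjusted p beside a bound, here and below, tests the fitted difference and not the bound. For Foxm1, a transcription factor active in G2 and mitosis, the 2 tested probes differed. The brighter one was not above background in CON 4W and was lower by at least 1.42-fold there (adjusted p = 0.027), while the other, detected on 2 of the 3 CON 4W arrays, differed by -0.30 (adjusted p = 0.41). In RES 1W they differed by -0.33 (adjusted p = 0.32) and -0.48 (adjusted p = 0.14).

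Of the 4 spindle checkpoint genes, 3 were measurable. Bub1b, the BubR1 protein that restrains Cdc20 until all kinetochores are attached, read 6.44, 6.06, 6.17 and 5.81 in CON 1W, 5.30, 5.51, 5.32 and 5.28 in RES 1W, 5.13, 4.64 and 4.82 in CON 4W, and 5.11, 5.36, 4.99 and 5.30 in RES 4W. CON 1W overlapped no other group, and 2 of the 3 CON 4W arrays were not above background. It was 2.39-fold lower in CON 4W (adjusted p = 1.7e-04) and 1.70-fold lower in RES 1W (adjusted p = 0.0056). A second Bub1b probe did not share the call, with -0.32 (adjusted p = 0.37) and -0.26 (adjusted p = 0.52).

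Mad2l1, the checkpoint protein Mad2, was 2.04-fold lower in CON 4W (adjusted p = 0.0052) and differed by -0.57 in RES 1W (adjusted p = 0.093). A second Mad2l1 probe, near the detection limit, averaged only 5.00 in CON 1W, 4.84 in RES 1W and 4.61 in CON 4W. Ttk, the kinase that recruits the checkpoint to kinetochores, differed in shape from the other members. It was detected on 1 CON 1W array (5.19), on 2 CON 4W arrays (5.39 and 5.15) and on no restricted array, and the undetected arrays read 4.31 to 4.82. Its difference was 0.32 in CON 4W against CON 1W (adjusted p = 0.43). In RES 4W against CON 4W only a bound can be given, at least 1.16-fold, with an adjusted p of 0.083, which was 0.083 without RES 4W replicate 1 and 0.046 without CON 4W replicate 3.

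Of 5 genes that trigger anaphase or hold sister chromatids together, 3 were measurable. Cdc20, the activator of the anaphase-promoting complex, read 8.50, 8.12, 8.49 and 8.03 in CON 1W. In RES 1W it read 6.36, 6.96, 6.14 and 6.80, in CON 4W 5.80, 5.92 and 5.74, and in RES 4W 6.27, 6.42, 6.18 and 5.83. The CON 1W arrays were more than 1 log2 unit above the highest array of any other group, and RES 1W was above CON 4W on every array. Cdc20 was 5.51-fold lower in CON 4W (-2.46 ± 0.19, adjusted p = 2.9e-06) and 3.30-fold lower in RES 1W (-1.72 ± 0.18, adjusted p = 7.3e-05). Of its 3 other probes 2 were lower in both comparisons, and the dimmest differed by -0.46 (adjusted p = 0.23) and -0.19 (adjusted p = 0.73).

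Cdca5, the cohesion factor sororin, was lower by at least 1.14-fold in CON 4W (adjusted p = 0.046) and differed by -0.19 in RES 1W (adjusted p = 0.64). Pttg1, the securin that blocks separase, was the member of this group with no call: -0.29 in CON 4W (adjusted p = 0.37) and 0.10 in RES 1W (adjusted p = 0.85), with 95% intervals of -0.61 to 0.04 and -0.20 to 0.40.

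The chromosomal passenger complex corrects faulty attachments and later acts in cytokinesis, and 2 of its 3 listed genes were measurable. Birc5, the subunit survivin, read 7.45, 7.12, 7.81 and 7.42 in CON 1W, 5.54, 6.28, 5.40 and 5.86 in RES 1W, 5.32, 5.29 and 5.63 in CON 4W, and 5.94, 5.84, 5.57 and 5.68 in RES 4W. Again only CON 1W stood apart from the other groups. Birc5 was 4.09-fold lower in CON 4W (adjusted p = 2.6e-05) and 3.20-fold lower in RES 1W (adjusted p = 1.0e-04), and both of its other probes were lower in each comparison.

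Cdca8, the subunit borealin, read 7.25, 7.31, 7.58 and 7.32 in CON 1W, 6.26, 6.57, 6.59 and 6.38 in RES 1W, 6.21, 6.34 and 6.19 in CON 4W, and 6.38, 6.35, 6.24 and 6.07 in RES 4W. The 11 arrays outside CON 1W lay within 6.07 to 6.59, well above the detection limit. It was 2.17-fold lower in CON 4W (adjusted p = 5.4e-05) and 1.88-fold lower in RES 1W (adjusted p = 2.7e-04).

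At the centromere and kinetochore, 2 of 6 genes were measurable. Cenpa, the histone variant that marks centromeres, read 8.42, 8.40, 8.81 and 8.34 in CON 1W, 7.69, 7.91, 7.48 and 7.80 in RES 1W, 7.21, 7.47 and 7.32 in CON 4W, and 7.52, 7.34, 7.38 and 7.45 in RES 4W. It remained detected on all arrays, and CON 1W again overlapped none. Cenpa was 2.23-fold lower in CON 4W (adjusted p = 8.4e-05) and 1.71-fold lower in RES 1W (adjusted p = 0.0018). Kif2c, a kinesin that depolymerises microtubules at kinetochores, was lower by at least 1.37-fold in CON 4W (adjusted p = 0.028) and 1.59-fold lower in RES 1W (adjusted p = 0.049).

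Of 6 spindle genes, 3 were measurable. Kif22, a kinesin that pushes chromosome arms towards the spindle equator, read 7.38, 7.25, 7.89 and 7.26 in CON 1W, 6.71, 6.56, 6.41 and 6.37 in RES 1W, 5.86, 6.44 and 6.23 in CON 4W, and 6.27, 6.25, 6.42 and 6.19 in RES 4W. CON 1W was higher than every other array by more than 0.5. It was 2.41-fold lower in CON 4W (adjusted p = 2.9e-04) and 1.91-fold lower in RES 1W (adjusted p = 0.0022). Nusap1, which bundles spindle microtubules, was lower by at least 1.34-fold in CON 4W (adjusted p = 0.026) and at least 1.38-fold lower in RES 1W (adjusted p = 0.023), since no array of either group detected it. It was detected on 4 CON 1W arrays and 1 RES 4W array, and so needed CON 1W to pass the filter. That favoured lower levels elsewhere, so its 2 calls, counted above, carry no weight of their own. Kif4, a chromosome-bound kinesin, was lower by at least 1.07-fold in CON 4W (adjusted p = 0.020) and differed by -0.31 in RES 1W (adjusted p = 0.32).

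Of 6 cytokinesis genes, 3 were measurable. Prc1, which bundles the antiparallel microtubules of the central spindle, read 8.21, 7.76, 8.07 and 7.47 in CON 1W, 6.05, 6.98, 5.89 and 6.16 in RES 1W, 5.36, 5.56 and 5.33 in CON 4W, and 6.43, 5.96, 5.79 and 5.56 in RES 4W. RES 1W replicate 2 was the highest array outside CON 1W, as it was for Pbk, Cdc20 and Birc5. Prc1 was 5.50-fold lower in CON 4W (-2.46 ± 0.24, adjusted p = 4.1e-05) and 3.05-fold lower in RES 1W (adjusted p = 8.5e-04).

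Anln, the actin-binding scaffold anillin, was 2.80-fold lower in CON 4W (adjusted p = 0.029). In RES 1W it read 5.45, 6.88, 5.23 and 5.22, against 6.72, 7.02, 6.45 and 5.80 in CON 1W, so that 1 restricted array lay inside the control range. Its difference of -0.80 had an adjusted p of 0.24, and without RES 1W replicate 2 the adjusted p was 0.014. Kif23, a kinesin of the central spindle, differed by -0.45 in CON 4W (adjusted p = 0.28) and -0.16 in RES 1W (adjusted p = 0.79).

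Of 5 genes of chromosome structure, 4 were measurable, 1 was lower in CON 4W and 2 in RES 1W. Ncaph, a subunit of condensin I, read 6.00, 6.17, 6.07 and 5.96 in CON 1W, 5.66, 5.52, 5.52 and 5.76 in RES 1W, 5.26, 5.02 and 5.13 in CON 4W, and 5.38, 5.12, 5.25 and 5.13 in RES 4W. By this probe the groups formed steps: RES 1W lay between CON 1W and CON 4W with no overlap on either side. By a second Ncaph probe RES 1W (4.72 to 5.60) overlapped CON 4W (4.70 to 5.04). Ncaph was 1.88-fold lower in CON 4W (adjusted p = 1.3e-04) and 1.35-fold lower in RES 1W (adjusted p = 0.025).

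Top2a, the topoisomerase that disentangles sister chromatids, was detected only on the CON 1W arrays, where it read 4.88 to 5.49. It was lower by at least 1.20-fold in RES 1W (adjusted p = 0.035), and the bound in CON 4W, at least 1.17-fold, had an adjusted p of 0.12. Having passed the filter through CON 1W alone, it had to be lower elsewhere. Ncapd2, another condensin I subunit, differed by -0.33 and -0.32 (adjusted p = 0.13 in both), and Smc4, the core ATPase shared by both condensins, by -0.02 (interval -0.32 to 0.28) and 0.20 (interval -0.07 to 0.48).

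**Figure D2:**
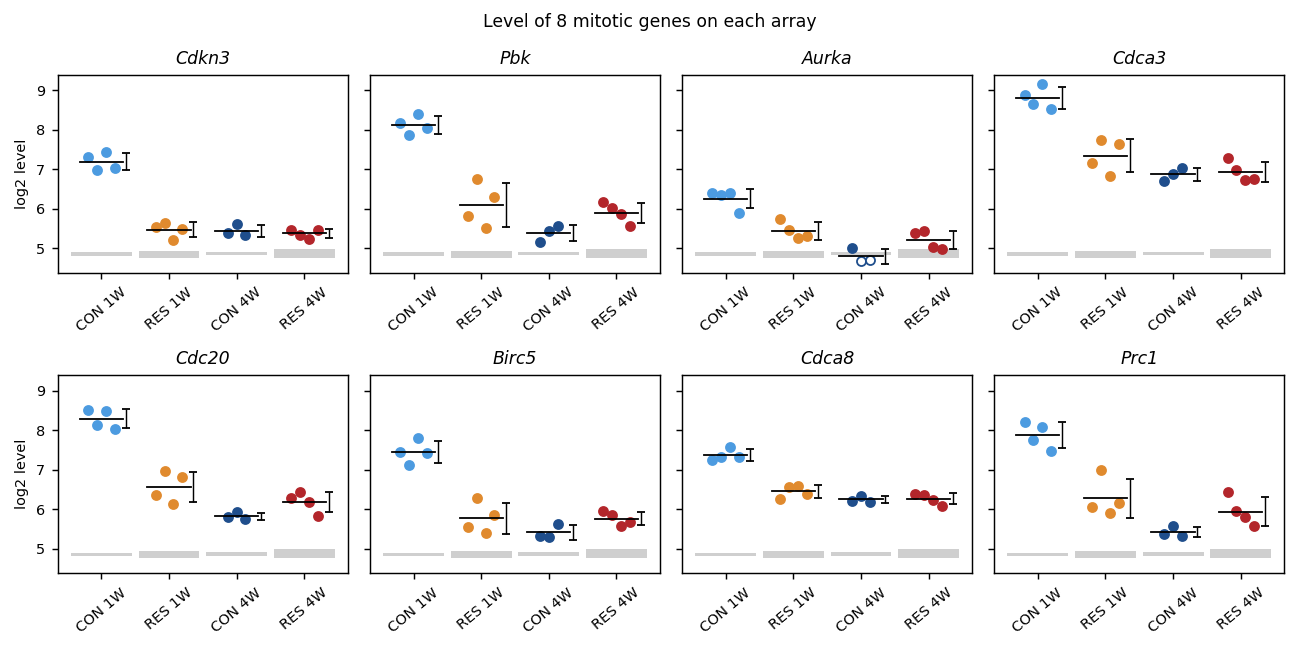
Log2 level of the 8 members with the smallest adjusted p between the control ages, on each array; the black line and bar give the group mean and SD, open points are arrays on which the probe was not above background, and the grey band spans the lowest detected level of the group's arrays. In every panel the 4 CON 1W arrays lie above all 11 others, and Aurka reaches the band in CON 4W. The panels were picked by the control ages, so their separation of CON 1W from CON 4W follows from the choice.

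Their promoters are shown for 2 short elements known from cell cycle promoters, the CHR element (TTTGAA or TTCGAA) and the CCAAT box (CCAAT), searched on both strands in the 250 bases before the start site of RefSeq promoters (GRCm38.p6). Promoters were listed for 41 of the 48 members, 43 promoters in all, and in 1 of them matches shared a letter. A CHR match was found in 39.5% of the 43 and in 17.1% of all 32851 promoters of the same length, and a CCAAT match in 74.4% and 33.8%. A CHR match together with 2 or more CCAAT matches was found in 23.3% and 1.71%. The last 120 bases before the start site follow for 5 of the members named above, chosen for their matches and not for the size of their differences, 5′ to 3′ on the gene's strand, to show promoters with both elements, with CCAAT alone and with neither; capitals mark the matches on either strand.
Cdc20: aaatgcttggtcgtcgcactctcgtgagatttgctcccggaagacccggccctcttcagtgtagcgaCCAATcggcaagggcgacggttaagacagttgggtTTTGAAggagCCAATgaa
Cdkn3: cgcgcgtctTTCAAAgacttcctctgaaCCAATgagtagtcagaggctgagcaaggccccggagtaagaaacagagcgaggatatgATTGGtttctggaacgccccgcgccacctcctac
Kif22: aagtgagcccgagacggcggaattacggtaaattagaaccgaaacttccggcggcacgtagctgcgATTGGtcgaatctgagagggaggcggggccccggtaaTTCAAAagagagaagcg
Cdca8: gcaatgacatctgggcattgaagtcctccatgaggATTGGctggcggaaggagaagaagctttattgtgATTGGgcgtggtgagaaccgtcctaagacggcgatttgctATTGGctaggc
Birc5: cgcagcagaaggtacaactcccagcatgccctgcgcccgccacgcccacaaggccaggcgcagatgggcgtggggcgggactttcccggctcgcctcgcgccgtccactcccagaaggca

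The windows lie at chr4:118437344-118437463 (minus strand) for Cdc20, chr14:46760421-46760540 (plus strand) for Cdkn3, chr7:127042421-127042540 (minus strand) for Kif22, chr4:124936918-124937037 (minus strand) for Cdca8 and chr11:117849117-117849236 (plus strand) for Birc5, each just upstream of its gene. Cdc20 and Kif22 had a CHR match beginning 18 and 17 bases before the start site and a CCAAT match 53 and 54 bases before it, whereas the CHR match of Cdkn3 lay 111 bases before it. Cdca8 had 3 CCAAT matches and no CHR match, and Birc5 had neither in its 250 bases. A relation between matches and differences in level was not tested. A match is a description of these letters and not a binding site.

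The third comparison, RES 4W against CON 4W, sets 4 weeks of restricted water, with the last day before sampling without water, against free access at 7 weeks of age. Here 0 of the 27 genes were lower and 1 was higher in limma's fit, although more probes differed than in RES 1W, with 2.86% of all tested probes lower and 3.63% higher. At an unadjusted p under 0.05 there were 7 of 27, but the share of all tested probes at that threshold was not counted. The 7 can therefore not be read as a result about these genes. Either test of the study's methods called 0 after adjustment, and the median difference was 0.16. Without RES 4W replicate 1, 2 genes were higher and 0 lower, and the median was 0.21. The intervals of several genes that were clearly lower in RES 1W were narrow around 0, with -0.35 to 0.22 for Cdkn3, -0.24 to 0.26 for Cdca8 and -0.18 to 0.37 for Cenpa, while that of Pbk ran from 0.02 to 1.01.

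Kif23 was the gene that was higher. It read 6.74, 6.69 and 6.88 in CON 4W and 6.78, 7.58, 7.70 and 7.84 in RES 4W. RES 4W replicate 1 lay inside the control range and the other 3 restricted arrays lay above it. The difference was 0.70 ± 0.20 (adjusted p = 0.046), or 0.94 (adjusted p = 1.9e-04) without replicate 1. Its 2 other probes differed by -0.01 (adjusted p = 0.98) and 0.39 (adjusted p = 0.31). The call was lost in 8 of 12 other settings and on leaving out any of 13 arrays.

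After Kif23, the smallest adjusted p-values were those of Ttk (0.083), Aurka (0.13) and Kif4 (0.14). Kif4 read 4.24, 4.29 and 4.30 in CON 4W, none above background, and 4.32, 4.97, 4.79 and 4.52 in RES 4W, of which the middle 2 were. RES 4W lay above CON 4W on every array, but neither group's mean reached the lowest detected level of the CON 4W arrays, so no fold change is given. Without RES 4W replicate 1 the adjusted p of Kif4 was 0.022. For Aurka, the difference of 0.41 (0.35 without RES 4W replicate 1, adjusted p = 0.15) rested on 4 detected arrays of RES 4W against 1 of 3 in CON 4W, and the groups overlapped.

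**Figure D3:**
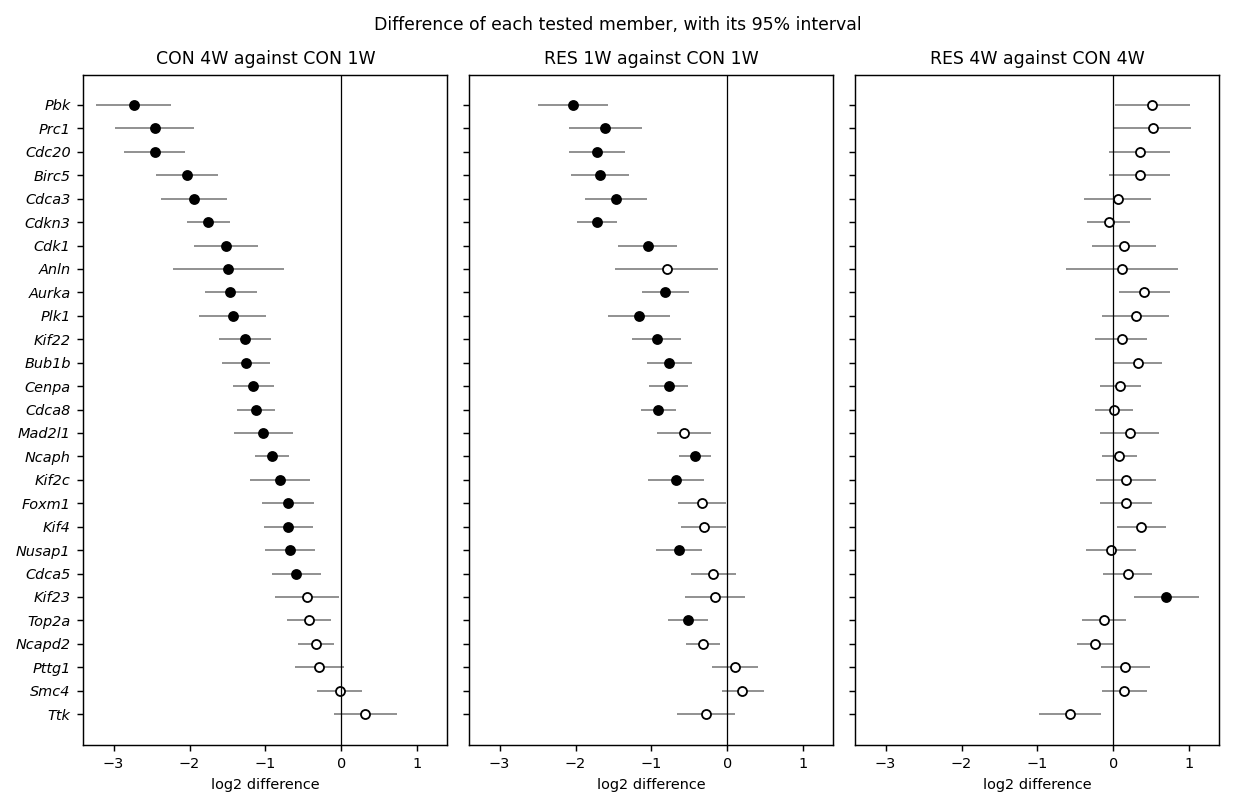
Log2 difference of each of the 27 tested members (rows, ordered by the first panel) with its 95% interval from limma; filled points have an adjusted p under 0.05. The points of the first and second panels lie mostly below 0 (21 and 17 filled), and those of the third lie around 0, with Kif23 alone filled; the differences of genes not above background in 1 of the groups are the fitted values, which are not bounds.

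The difference between the 2 restriction effects was tested as an interaction, RES 4W minus CON 4W against RES 1W minus CON 1W. The mice of the 4-week groups were both older and restricted for longer, and the early fall in food intake lay further back. Age, duration and food intake therefore cannot be told apart in this interaction. At an adjusted p under 0.05 it was called above 0 for 12 of the 27 genes and below 0 for none, where 0.368% of all tested probes were called above and 0.215% below. The count at an unadjusted p under 0.05 was 21, with no share over all tested probes counted at that threshold to read it against. Pbk had the largest difference of effects (2.54 ± 0.32, adjusted p = 0.0037), followed by Prc1 (2.12, adjusted p = 0.012), Cdc20 (2.07, adjusted p = 0.0037), Birc5 (2.03, adjusted p = 0.0041) and Cdkn3 (1.65, adjusted p = 0.0021). Cdca3, Plk1, Aurka, Bub1b, Kif22, Cdca8 and Cenpa followed with 0.86 to 1.53. Without RES 4W replicate 1 the first 5 had differences of 2.45 for Pbk, 1.96 for Prc1, 2.04 for Cdc20, 1.96 for Birc5 and 1.62 for Cdkn3.

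The room left for a lower level in the older kidneys differed between these 12 genes. In CON 4W, Cenpa, Cdca3, Cdca8 and Kif22 averaged 2.45, 1.99, 1.37 and 1.30 above the mean lowest detected level of 4.88, and a fall of the size seen in RES 1W would have left each above it. For the other 8, such a fall would have ended below the detection limit; Aurka and Bub1b were already at it in CON 4W (-0.08 and -0.02 from it). For those 8 genes a fall of that size could not have been measured in full, and the part of this limit in the result was not tested.

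The number of genes with a different effect depended on single arrays. It was 16 without RES 4W replicate 1. It was 5 without CON 1W replicate 3, CON 4W replicate 3 or RES 4W replicate 2, 6 without RES 1W replicate 1, RES 1W replicate 4 or CON 4W replicate 2, and 7 without CON 1W replicate 2, RES 1W replicate 3, RES 4W replicate 3 or RES 4W replicate 4. Pbk, Cdc20, Birc5, Cdkn3 and Prc1 kept the call whichever array was left out, whereas each of the other 7 lost it on leaving out at least 7 of the 15 arrays.

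**Figure D4:**
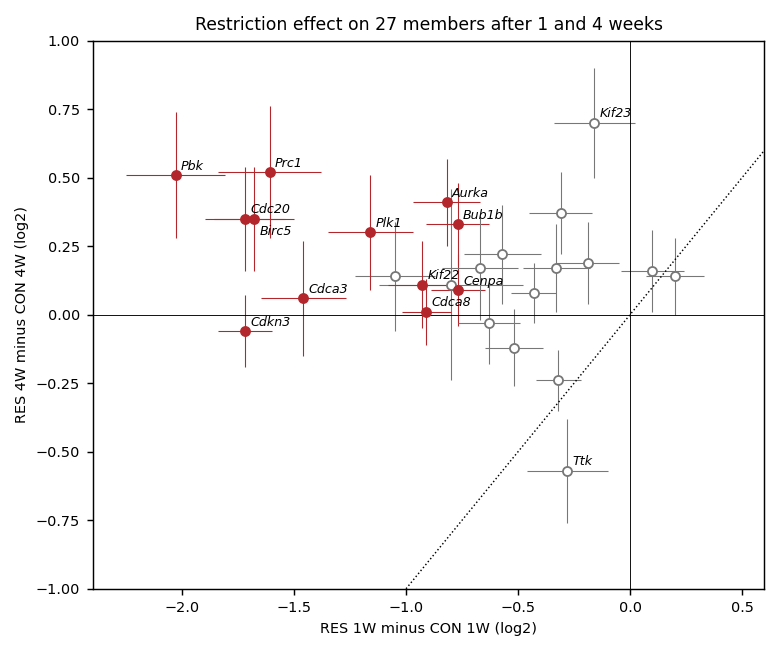
Restriction effect on each of the 27 members after 1 week (RES 1W minus CON 1W, x axis, log2) and after 4 weeks (RES 4W minus CON 4W, y axis, log2), with standard errors; the dotted line marks equal effects. The 12 red points (adjusted p under 0.05 for the difference) lie to the left, between -2.03 and -0.77 on the x axis and between -0.06 and 0.52 on the y axis.

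Between the restricted groups, RES 4W against RES 1W, 1 of the 27 genes was lower and 0 higher, where 5.31% of all tested probes were lower and 6.29% higher. The lower gene was Ncaph (-0.40 ± 0.10, adjusted p = 0.018; -0.45, adjusted p = 0.0037 without RES 4W replicate 1), whose 4 RES 4W arrays lay below all RES 1W arrays, while its second probe differed by -0.18 (adjusted p = 0.55). Cdkn3 and Birc5 differed by -0.10 and -0.01, with intervals of -0.36 to 0.17 and -0.39 to 0.37. Without RES 4W replicate 1, Kif23 was also higher (0.65, adjusted p = 0.0016).

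The members' other tested probes were read separately. Of 13, 7 were called lower in CON 4W (1.79% of all tested probes) and 6 in RES 1W (1.38%), 0 were called higher in either, and the estimates of all 13 were below 0 in both. A second Cdca8 probe, 1 of the 7, passed the filter through 3 CON 1W arrays alone. The second Cdca3 and Mad2l1 probes also needed their CON 1W arrays to pass. For these probes the filter favoured lower levels elsewhere.

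Further genes of the pathway were taken from lists drawn from textbook knowledge. The shares of all tested probes to read their counts against are 1.79% lower in CON 4W, 1.38% lower in RES 1W and 2.86% lower in RES 4W against CON 4W. Of 39 other kinetochore and centromere genes, 24 were measurable, 3 were lower in CON 4W and 4 in RES 1W, and none was called higher in either. In RES 4W against CON 4W 2 were lower, the centromere protein Cenpb (-0.73, adjusted p = 0.043) and the kinetochore protein Zwint (-0.48, adjusted p = 0.046), both named after their values were seen. Cenpw, a constitutive centromere protein, was lower in CON 4W (-0.78, adjusted p = 0.0053). Oip5, which loads the centromere histone, and Cenpm, another constitutive centromere protein, were detected on all CON 1W arrays and on no CON 4W or RES 1W array, and Oip5 was at least 1.22-fold and 1.26-fold lower. Sgo1, shugoshin, which protects centromeric cohesion, was detected on all CON 1W arrays and on no RES 1W array, where it was lower by at least 1.27-fold. Oip5, Cenpm and Sgo1 passed the filter through CON 1W, which favoured lower levels elsewhere, so their calls in the counts above carry no weight of their own. Sgo1 was not called in CON 4W (-0.39, adjusted p = 0.19).

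Of 17 regulators of mitotic entry, 13 were measurable, 2 were lower in CON 4W, 3 in RES 1W and 1 in RES 4W against CON 4W (Ensa, an inhibitor of a phosphatase that opposes Cdk1; -0.48, adjusted p = 0.047). Cdca2, which brings a phosphatase to chromosomes at the end of mitosis, averaged 6.01 ± 0.34 in CON 1W, 5.07 ± 0.26 in RES 1W, 4.69 ± 0.12 in CON 4W and 4.95 ± 0.21 in RES 4W (SD), and was above background on no CON 4W array. It was lower by at least 2.18-fold in CON 4W (adjusted p = 5.3e-04) and lower by -0.94 in RES 1W (adjusted p = 0.0045), and its restriction effects differed (1.19, adjusted p = 0.038; 1.30 without RES 4W replicate 1, adjusted p = 0.0020). Cdc25c, the phosphatase that activates Cdk1, was detected on 3 arrays, all of them CON 1W, and the bounds were 1.05-fold in CON 4W and 1.08-fold in RES 1W. It too passed the filter through CON 1W alone, so that its lower calls, counted above, were favoured by the filter and carry no weight of their own.

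Of 27 further spindle and cytokinesis genes, 9 were measurable and none was lower in CON 4W or RES 1W against CON 1W by limma. Spag5, the spindle protein astrin, moved the other way from the members: it averaged 5.74 ± 0.19 in CON 1W, 6.83 ± 0.26 in RES 1W, 5.76 ± 0.32 in CON 4W and 5.88 ± 0.12 in RES 4W (SD). It was higher in RES 1W than in CON 1W (1.10, adjusted p = 8.2e-04) and lower in RES 4W than in RES 1W (-0.95, adjusted p = 0.0017; adjusted p = 4.1e-04 without RES 4W replicate 1).

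Of the anaphase-promoting complex, to which Cdc20 binds, 12 of 18 genes were measurable, as were 8 of 12 genes of cohesin and its regulators and 4 of 8 further condensin and chromatin genes. None of these 3 lists had a gene called between the control ages or in RES 1W. In RES 4W against CON 4W, where 2.86% of all tested probes were lower, each list had 1 lower gene, too few to describe a list. These were Cdc16, a subunit of that complex (-0.78, adjusted p = 0.025), Wapl, which releases cohesin from chromosomes (-0.54, adjusted p = 0.026), and Lmnb1, a lamin of the nuclear envelope (-0.63, adjusted p = 0.024).

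Of 20 transcription factors and partners that govern mitotic genes, 14 were measurable, and none was called in RES 1W. E2f1, an activator of S phase genes, was lower in CON 4W (-0.45, adjusted p = 0.029) and lower again in RES 4W against CON 4W (-0.45, adjusted p = 0.027). In that comparison Rbbp4, a subunit of the MuvB complex that occupies CHR elements, was also lower (-0.85, adjusted p = 0.041; -1.16 without RES 4W replicate 1). Tfdp1, the dimer partner of E2f proteins, was higher (0.43, adjusted p = 0.020), and Mybl2, which activates mitotic genes with MuvB, was at least 1.17-fold higher (adjusted p = 0.025), being detected on all 4 RES 4W arrays and on no CON 4W array. Without RES 4W replicate 1 the calls of RES 4W against CON 4W named for Cenpb, Zwint, Ensa, Cdc16, Wapl, Lmnb1, E2f1, Rbbp4, Tfdp1 and Mybl2 remained.

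Markers of other cells and of tubule segments also differed between the groups. The 6 tested fibroblast and pericyte markers of 7 averaged 7.83 to 8.19 on the CON 1W arrays and 7.61 to 7.70 on the CON 4W arrays. Their differences ranged from -1.16 to 0.13. Only Col1a1 was called (-1.16, adjusted p = 0.0030), and it was detected on 1 of the 3 CON 4W arrays. The 6 endothelial markers averaged 7.79 to 7.95 and 7.64 to 7.74. Their differences ranged from -0.50 to 0.31, and only Egfl7 was called (-0.50, adjusted p = 0.025). In RES 1W both lists overlapped CON 1W (7.90 to 8.03 and 7.79 to 7.96), and none of their genes was called. Meox1, from a list of nephron progenitor genes of which 2 of 5 were measurable, was lower in both CON 4W (-0.77, adjusted p = 0.0053) and RES 1W (-0.53, adjusted p = 0.036), while the other, Osr1, differed by 0.44 (adjusted p = 0.28) and -0.18 (adjusted p = 0.76), and the mean of the list overlapped between CON 1W (5.92 to 6.02) and CON 4W (5.62 to 6.06). The 3 distal convoluted tubule markers averaged 10.02 to 10.22 in CON 1W, 9.67 to 9.94 in CON 4W and 9.72 to 9.95 in RES 1W, with Trpm6 lower in CON 4W (-0.47, adjusted p = 0.047) and Pvalb lower in RES 1W (-0.71, adjusted p = 0.011). The 5 tested collecting duct markers of 6 averaged 8.72 to 8.94 in CON 1W, 8.44 to 8.71 in CON 4W and 9.07 to 9.26 in RES 1W. Atp6v1b1 was lower in CON 4W (-1.06, adjusted p = 0.045), where the list ranged from -1.06 to 0.16. In RES 1W Aqp2 (1.46, adjusted p = 0.0020) and Aqp3 (0.50, adjusted p = 0.0049) were higher. The list there ranged from -0.20 to 1.46 with a median of 0, so the raised mean was not shared by all 5 markers. The 3 tested macrophage markers of 5 averaged 6.25 to 6.46 in CON 1W and 6.08 to 6.23 in RES 1W, and none of them was called there. The 4 thick ascending limb markers averaged 11.53 to 11.67 on the RES 1W arrays and 11.21 to 11.32 on the CON 1W arrays, with 1 of them called higher. The steady mean of the 6 proximal tubule markers hid calls in both directions. In RES 1W Slc22a6 was lower (-0.49, adjusted p = 0.011) and Aqp1 higher (0.53, adjusted p = 0.020). Slc5a2 was higher in RES 4W than in CON 4W (0.96, adjusted p = 0.0097, and 1.12 without RES 4W replicate 1), where the list ranged from -0.30 to 0.96. In RES 4W the endothelial markers averaged 7.84 to 8.11, and Tie1 (0.82, adjusted p = 0.0099) and Pecam1 (0.55, adjusted p = 0.027) were higher than in CON 4W, also without RES 4W replicate 1 (0.94 and 0.60). Differences over the 6 ranged from -0.16 to 0.82 with a median of 0.21, and the other endothelial markers were not called. Of 6 lymphocyte markers 2 were measurable and stayed near the detection limit, at 4.37 to 5.24. The part of these cells in the differences of the members was not tested.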

How the data were processed

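The 48 genes and the lists around them were chosen with earlier results of these data known. RNA of 15 kidney samples was hybridized to Illumina MouseWG-6 arrays, and the deposited intensities are those the authors read out of GenomeStudio 1.0.2, which had subtracted background and quantile-normalized the arrays. Of these values, 34.9% were 0 or negative. The deposited detection p-values compare each intensity with the array's negative control beads. The authors' deposited processed log2 values, used as an alternative, derive from the same intensities. Log2 levels were computed here in R 4.3.3 by the neqc function (limma 3.58.1; normexp correction, offset 16, quantile normalization), which is a further correction. Tests covered probes detected (detection p under 0.05) on 3 or more arrays (19027 of 45281; 16351 with 1 symbol, 7 with several, 2669 with none). A gene was read from its tested probe with the highest mean level.

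A linear model with 4 group means was fitted over all 15 arrays with lmFit and eBayes, as the ANOVA of the methods pools the groups. Tests were two-sided, with Benjamini-Hochberg adjustment over all tested probes. For a gene undetected on every array of 1 group, the fold change is a lower bound set by that group's lowest detected levels. The bound itself was not tested, and the adjusted p beside it belongs to the fitted difference. For Cdca5, Kif4, Cdc25c and Ttk the brighter group also had undetected arrays, whose readings enter its mean, so their bounds are approximate. Values on each array were given for the 8 members with the smallest adjusted p between the control ages, the 4 with the smallest in each restriction comparison (Ttk by its detected arrays, Aurka once) and the first of each role group; from each further list up to 4 genes were named. Scripts were tested on simulated data. Alternatives were another background treatment, an offset of 50, the processed values, no filter or a stricter one, the mean of a gene's probes, a fit of only the groups compared, a trended and robust prior, array weights, the methods' ANOVA and t-test, a replicate block and the omission of each array in turn. BeadChip positions were not given in the sources used here. The number of arrays limits the precision.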

Additional observations from a re-analysis of the deposited data

Results flagged for a closer look

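For 12 members the effect of restriction differed between 1 week at the younger age and 4 weeks at the older one by limma's interaction test. In this test age, duration and food intake cannot be told apart. The difference (log2, 4 weeks minus 1 week of restriction) was positive in each: Pbk 2.54, Prc1 2.12, Cdc20 2.07, Birc5 2.03, Cdkn3 1.65, Cdca3 1.53, Plk1 1.46, Aurka 1.22, Bub1b 1.09, Kif22 1.04, Cdca8 0.92 and Cenpa 0.86. Their adjusted p-values ran from 0.0021 for Cdkn3 to 0.044 for Kif22.

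In 4 of 81 groups of 4 arrays, 1 array lay far from the other 3, and chance marks about 1 in 20 such groups. Aurka read 5.90 on CON 1W replicate 4, against 6.35 to 6.39 on the others. Anln read 6.88 on RES 1W replicate 2, against 5.22 to 5.45, and 4.68 on RES 4W replicate 1, against 5.20 to 5.31. Foxm1 read 4.57 on RES 4W replicate 1, against 4.91 to 4.97.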

How the results depend on the processing

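No called difference of a member changed its direction under any of the alternatives run. Of the 21 genes lower in CON 4W, 9 kept the call in every alternative, and of the 17 lower in RES 1W, 3 did; the methods' t-test, which estimates each probe's spread from 2 groups alone, gave 9 and 3 lower genes after Benjamini-Hochberg adjustment. At the methods' thresholds (fold above 1.5 and FDR under 0.01) their ANOVA gave 14 and 8.

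Leaving out 1 array gave 15 to 21 genes lower in CON 4W, 13 to 17 lower in RES 1W, 0 to 2 higher and 0 to 1 lower in RES 4W against CON 4W, 0 to 1 lower and 0 to 1 higher in RES 4W against RES 1W, and 5 to 16 with a different restriction effect. The medians then ran from -1.17 to -1.04, -0.82 to -0.67, 0.13 to 0.21, -0.24 to -0.11 and 0.78 to 0.94, and 0 genes were higher in CON 4W or RES 1W against CON 1W.

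The count with a different restriction effect was 7 with the authors' processed values (20 genes), 6 with no filter, 5 with the methods' ANOVA and 19 with array weights. The 1 gene higher in RES 4W against CON 4W became 0 with the processed values, no filter, the mean of a gene's probes, only the groups compared, the t-test and the ANOVA, and 2 with array weights. The 1 gene lower in RES 4W against RES 1W became 0 with the mean of a gene's probes, only the groups compared, the t-test and the trended and robust prior, and 4 with array weights, which also gave 1 higher. The cause was not tested.

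The median in CON 4W against CON 1W was -0.79 with an offset of 50, which shrinks differences of dim probes by construction, -1.83 with the processed values, -0.33 with no filter (47 genes), -1.43 with the stricter filter and -0.81 with the mean of a gene's probes. In RES 1W against CON 1W it was -0.47, -1.07 and -0.28 with the offset, the processed values and no filter. In RES 4W against CON 4W it was 0.39 with the processed values. For the difference of effects it was 0.63, 1.27, 0.38 and 1.09 with the offset, the processed values, no filter and the stricter filter.

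Replicate numbers are shared by the labels of the groups but did not pair the samples (correlations of same-numbered deviations from -0.12 to 0.19). With the replicate number as a block, 17 genes were lower in CON 4W, 15 in RES 1W and 9 had a different restriction effect, and the gene higher in RES 4W against CON 4W was Aurka (0.49, adjusted p = 0.043) in place of Kif23 (adjusted p = 0.068). A BeadChip block was not run.

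Signal near background limits the dim members: 20 genes did not pass the filter, and of the 7 whose probe was not detected in CON 4W a fold change there is a bound, with Foxm1 measured by a second probe.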
